A study of Mus musculus with 45 samples.

Results

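The YEJH fat-pad lines are 5 PyMT+ mouse mammary cancer cell lines, YEJH-FP1 to YEJH-FP5, which were established from tumours that grew after YEJH cells had been transplanted into the mammary fat pad. They are compared here with YEJH itself, the parental line taken from a primary mammary tumour. Libraries were chosen by their cell line label, which gave 15 fat-pad libraries and 3 parental libraries, 18 of the 45 libraries of the series. All cells in the comparison carry PyMT, the polyomavirus middle T antigen, and the labels name no treatment for any of them. Polyadenylated RNA was taken from cells grown on plastic for 24 h, so the values describe cultured cells after passage through an animal and not the tumours themselves. The 3 libraries of a line are technical repeats, and the parental arm is therefore 1 line. The study counts cell lines as its replicates, and it describes the lines from fat-pad tumours as independent lines from separate mice. Growth in the fat pad, re-establishment in culture and time in culture all separate the fat-pad lines from YEJH and cannot be told apart in this design.

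In mammary epithelium, middle T antigen recruits Src, phosphoinositide 3-kinase and Shc at the membrane and so mimics an activated growth factor receptor, which leads to luminal adenocarcinomas that spread to the lung. Cells that are moved from a dish into the fat pad meet host immune and stromal cells, uneven oxygen and a new matrix. Lines recovered from such tumours are used to ask which expression differences persist once the cells are returned to culture.

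Between 12313183 and 16943900 reads were counted on genes in the fat-pad libraries and between 11357791 and 16346850 in the parental libraries. Library names carry 2 prefixes, taken here as library runs A and B, and each line had libraries in both. The labels do not say what the prefixes mark. The names of parental library 2 and of library 1 of YEJH-FP5 spell the line as YRJH, and both were placed by their cell line label. Between 31.6% and 36.0% of the reads of a library were not assigned to a gene, and all such reads of a low-quality class, 921566 to 1117305 per library, were in run A. Libraries of different fat-pad lines correlated almost as closely (median Pearson r across genes = 0.9916) as libraries of 1 fat-pad line (median r = 0.9924). A fat-pad and a parental library gave a median r of 0.983, and the pairs of parental libraries 0.984 to 0.992. On the first principal component of the 18 libraries, which held 28.5% of the variance, the parental libraries lay between -58.4 and -37.4 and the fat-pad libraries between -0.13 and 18.1. The epithelial markers, such as keratins 8 and 18 and Epcam, summed to 7770 to 8823 CPM (reads per 1000000 reads counted on genes, after TMM scaling) in parental and 7696 to 10611 CPM in fat-pad libraries. Markers of adipocytes, endothelium and fibroblasts were low in both, and those of leukocytes are given with the interferon genes. Adipocyte markers summed to at most 0.65 CPM with 6 of 12 genes without a read, endothelial markers to at most 7.16 CPM with 4 of 12 without a read, and fibroblast markers to at most 6.58 CPM with 3 of 12 without a read.

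All 5 fat-pad lines lay on the same side of YEJH in 9494 of 16059 tested genes. Of the tested genes, 31.0% had all 5 lines above and 28.1% had all 5 lines below the parental line. This count alone separates little, because 1 shared value decides the side of all 5 lines. In edgeR's quasi-likelihood test on counts summed per line, with the share of reads from run A as covariate, 2398 genes passed an adjusted p of 0.05, which is 14.9% of those tested. Of these, 1074 (6.69%) were higher and 1324 (8.24%) were lower in the fat-pad lines. For 2393 of the 2398 all 5 lines lay on one side, 1071 above and 1322 below, and these are the genes called higher or lower in what follows. Protein-coding genes made up 96.1% of these and 75.7% of the tested genes, so they were called more often than the 14.9% over all genes. Of coding genes, 16.2% were called outside chromosome 7 and 52.2% on it. The 14.9% set beside gene lists below is therefore a low mark for coding genes. Most changes were small, since 66.9% of the called genes differed by less than 1.5-fold, while 303 were over 2-fold higher and 217 over 2-fold lower. In 620 genes all 15 fat-pad libraries lay above all 3 parental libraries (3.86%), and in 795 all lay below (4.95%). Between 694 and 813 genes differed over 2-fold between a single fat-pad line and YEJH, against 128 to 211 between any pair of fat-pad lines.

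The model takes the spread from the 5 fat-pad lines and assumes that the lone parental line varies as they do. With 6 lines an exact permutation test cannot give a two-sided p below 0.333. The count of calls rested in part on single parental libraries: it was 1255 without parental library 2 and 4088 without parental library 3. In cell lines, as in other bulk samples, fewer cells that express a gene and less RNA per cell cannot be told apart.

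Genes of chromosome 7 stood lower in the fat-pad lines along the whole chromosome. Of 1189 tested genes on it, 84.4% had a fitted log2 fold change below 0, and their median was -0.25, against 0.013 for all other genes. On chromosome 7, 466 genes were called lower and 29 were called higher, together 41.6% of those tested. On the other chromosomes the share called ran from 11.1% on chromosome 17 to 15.9% on chromosome 15. All 5 lines lay below YEJH in 67.8% of chromosome 7 genes and in 24.96% of other genes. Chromosome 7 thus held 466 of the 1322 genes that were called lower, and with its genes set aside the calls numbered 1042 higher and 856 lower.

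The decrease was even from line to line and along the chromosome. The median difference from YEJH lay between -0.25 and -0.23 in each of the 5 fat-pad lines. When the tested genes were cut into 15 segments of 79 or 80 neighbours, every segment had a negative median, from -0.32 to -0.18, and 24.1% to 57.5% of its genes were called lower. Reads on chromosome 7 made up 6.53% to 6.92% of the total in the 15 fat-pad libraries and 7.55% to 8.23% in the 3 parental libraries, with no overlap. The parental libraries were not alike in this respect. Relative to the mean of the fat-pad lines, chromosome 7 stood 0.35, 0.27 and 0.19 higher than other genes (log2) in parental libraries 1, 2 and 3, of which library 2 is from run A. The fat-pad libraries lay between -0.036 and 0.063 by the same measure. In YEJH and in each of the 5 fat-pad lines library 1 was the highest of its line. Under every alternative fit that tested these genes the median stayed between -0.28 and -0.20.

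**Figure D1:**
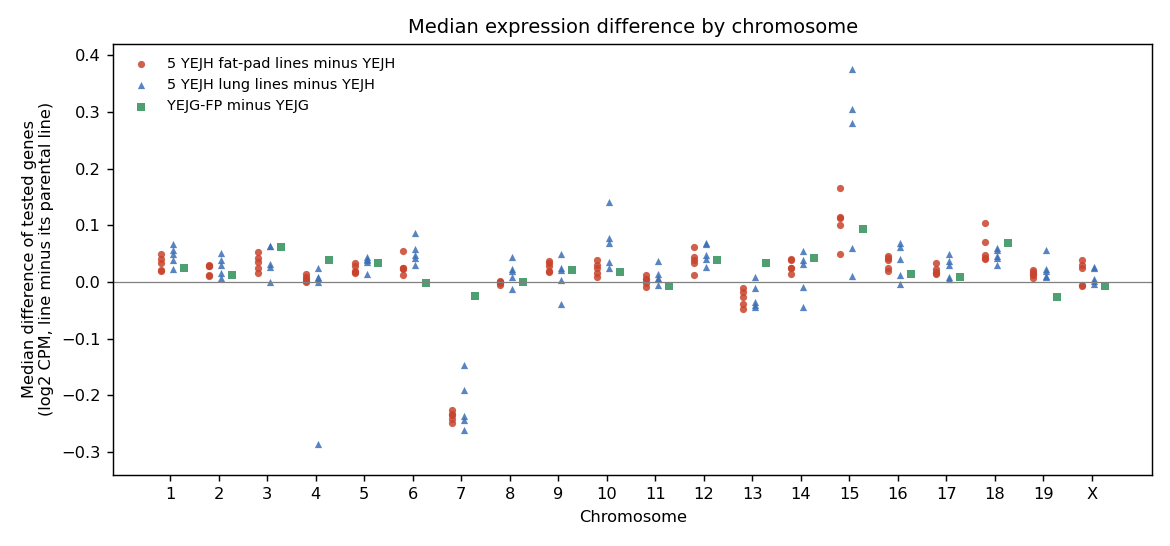
Median difference in log2 CPM between a line and its own parental line, over the tested genes of each chromosome (x axis: chromosome), with circles for the 5 YEJH fat-pad lines, triangles for the 5 YEJH lung lines and squares for YEJG-FP. On chromosome 7 the fat-pad lines lie between -0.25 and -0.23, while on the other chromosomes they lie between -0.048 and 0.17.

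The YEJH lung lines, which descend from the same parental line, had chromosome 7 medians of -0.26 to -0.15 against YEJH, and these comparisons share the parental libraries. YEJG is a second PyMT+ parental line, and its 3 derived lines had medians of -0.036 to -0.0090 against YEJG, with YEJG-FP at -0.025. Chromosome 15 showed the opposite tilt, though a weaker one, with a median of 0.085, 83 genes called higher and 15 called lower. Relative to other genes, its libraries overlapped between groups, at -0.15 to -0.049 in the parental and -0.080 to 0.066 in the fat-pad libraries, and those of YEJH-FP5 lay within the parental range. Its medians were 0.049 to 0.17 in the fat-pad lines, 0.011 to 0.38 in the YEJH lung lines and 0.093 in YEJG-FP. The cause of neither pattern was tested. Members on chromosome 7 are named as such in the gene groups that follow.

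**Figure D2:**
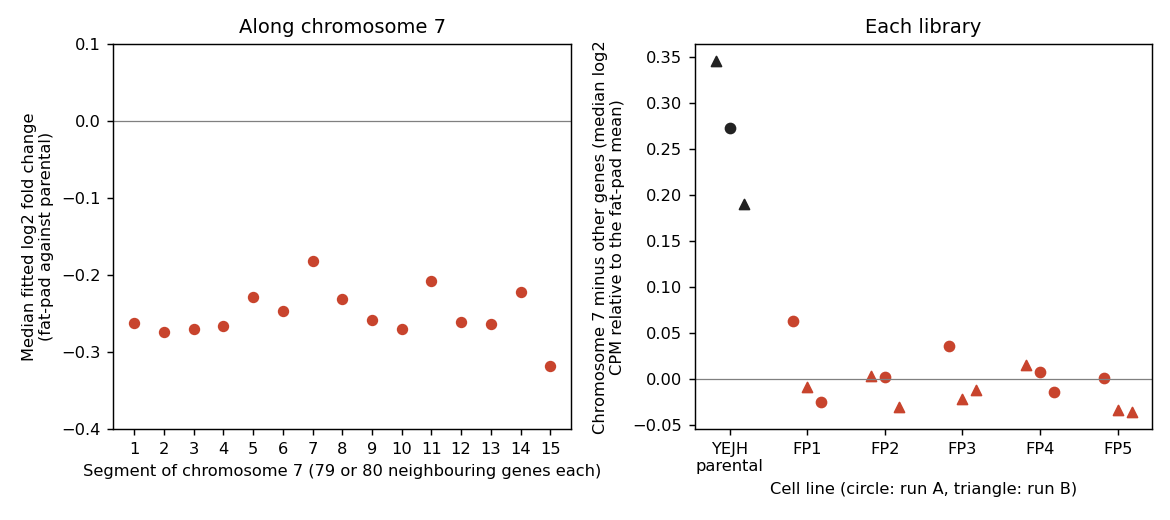
Left, the median fitted log2 fold change of fat-pad against parental for 15 consecutive segments of chromosome 7, all between -0.32 and -0.18. Right, chromosome 7 relative to other genes in each of the 18 libraries (median log2 CPM difference from the mean of the fat-pad lines, circles run A, triangles run B), where the 3 parental libraries lie at 0.19 to 0.35 and the fat-pad libraries at -0.036 to 0.063.

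Turning to single genes, the largest rises were in genes with few reads in YEJH. Nqo1 (ENSMUSG00000003849), a quinone reductase and a classical target of the antioxidant factor NRF2, had 0.179, 0.307 and 0.715 CPM in the parental libraries. It had 40.98, 48.7, 25.9, 43.2 and 38.5 CPM in YEJH-FP1 to YEJH-FP5, and its fitted log2 fold change was 6.48 (SE 0.83, adjusted p = 0.0273), where SE is the standard error. No fat-pad library overlapped a parental one. Its call was lost in 5 of 21 alternatives, including the fit without parental library 2. Of the list of NRF2 targets and glutathione genes, 3 of 29 tested members were higher and 1 was lower, a share of 13.8% near the 14.9% over all genes, with a median log2 fold change of 0.0047. Without parental library 1 the members called higher were 5, and without library 2 there was 1. Besides Nqo1, the 2 members that rose were Srxn1, which repairs oxidised peroxiredoxins (0.57), and Gclm, a subunit of glutamate-cysteine ligase (0.32). The member that fell was Taldo1, transaldolase, on chromosome 7.

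In 34 called genes the parental line had no read at all. Nlrx1, a NOD-like receptor of mitochondria, had 0 parental reads and 3.43, 3.77, 3.11, 3.37 and 3.55 CPM in the 5 lines. Set against a floor of 3 reads over the 3 parental libraries together, it was at least 47.5-fold higher. Clec2f, a C-type lectin of the natural killer gene complex, had 0 parental reads and 5.105, 6.75, 4.07, 4.42 and 5.02 CPM, at least 70.8-fold higher. Related Clec2 genes lie beside it, and how far reads are shared between them is uncertain. These 2 genes were thus absent from the parental reads and present in every fat-pad line. Kcnk5, a background potassium channel, had 1 parental read and 4.12, 3.64, 2.92, 4.11 and 2.45 CPM in the fat-pad lines, a ratio of 144 with a 95% counting interval of 25.8 to 5685. Myo5c, an unconventional myosin of epithelial vesicle transport, had 2 parental reads, with a ratio of 74.9 (20.7 to 619). The intervals cover counting error only. Ptgs2os2, an RNA antisense to the prostaglandin synthase gene Ptgs2, had a ratio of 107 (29.5 to 881), but the library kit does not mark strand, so reads of the antisense partners cannot be separated.

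Tfap2c, a transcription factor of luminal epithelium, rose from 0.0894, 0.0768 and 0.119 CPM to 5.84, 6.802, 4.89, 6.53 and 3.93 CPM, a log2 difference of 5.67 (SE 0.63, adjusted p = 0.00144). All fat-pad libraries were above all parental libraries. Phactr1, a regulator of actin, rose by 5.46 (SE 0.43, adjusted p = 7.29e-05) and Crispld2, a secreted cysteine-rich protein, by 5.22 (SE 0.39, adjusted p = 0.000366). Slfn8 (5.16) belongs to the Schlafen family, whose near-identical copies make its reads uncertain, and Nol4l had 3 parental reads and a ratio of 49.8 (17.1 to 242). The 12 largest rises among moderately expressed genes were completed by Psmb8, described with antigen presentation.

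Among genes with a mean log2 CPM of at least 1, the largest falls were smaller in fold than the largest rises. No gene among these falls was silent in every fat-pad line. This minimum cannot compare the directions evenly, because most lines in the mean are fat-pad lines. A gene silent in all fat-pad lines needed a higher value in YEJH to enter than a gene silent in YEJH needed in the fat-pad lines. No difference between rises and falls is therefore drawn from this ranking. Epb41l3, which links membrane proteins to the spectrin and actin cytoskeleton, had 14.5, 12.8 and 11.3 CPM in the parental libraries and 0.0683, 0.574, 0.445, 0.439 and 0.704 CPM in the fat-pad lines. Its log2 fold change was -4.61 (SE 0.28, adjusted p = 9.63e-06), and it was called in all 20 alternatives that tested it. YEJH-FP1 was lowest, at 0.068 CPM. Fzd3, a Frizzled receptor for Wnt ligands, fell from 20.03, 22.7 and 25.995 CPM to 1.39, 1.79, 2.26, 2.64 and 3.21 CPM, a change of -3.29 (SE 0.24, adjusted p = 0.000259). Nrn1, a membrane-anchored neuritin, fell by 2.94 on the log2 scale (adjusted p = 0.000983).

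Myh10, a heavy chain of non-muscle myosin, had 68.8, 69.2 and 76.1 CPM in the parental libraries and 22.7, 19.9, 15.2, 21.99 and 20.2 CPM in the fat-pad lines (-1.99 (SE 0.11, adjusted p = 2.96e-05)). Dock3 (-2.62) and Arhgef4 (-2.15) activate small GTPases, Chn2 (-2.36) inactivates Rac, and Tbc1d9 (-2.12) is a Rab GTPase-activating protein. Slc2a5, the fructose transporter, fell to 1.3999 to 2.48 CPM from 7.76 to 9.301 CPM, and Cers6, a ceramide synthase, fell to 2.53 to 4.93 CPM from 12.4 to 14.6 CPM. The remaining 2 were Cyp2j6, a cytochrome P450 with close paralogues (-2.17), and Hdgfl3 (-2.398), which is on chromosome 7 but fell well beyond the median of that chromosome.

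**Figure D3:**
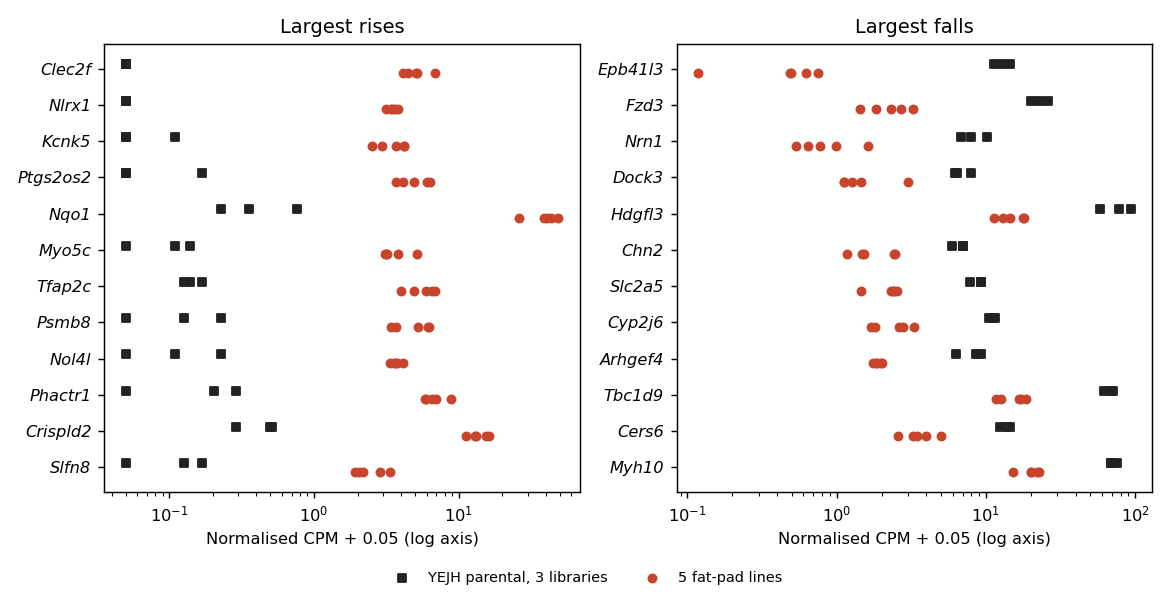
Normalised CPM plus 0.05 on a log axis for the 12 largest rises (left) and the 12 largest falls (right), with squares for the 3 parental libraries and circles for the run-balanced values of the 5 fat-pad lines. Squares and circles do not overlap in any of the 24 genes.

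The smallest p-values marked genes with very even changes of moderate to large size, and these were chosen after their values were seen. Apobr, a lipoprotein receptor of macrophages, rose from 6.17, 10.6 and 9.599 CPM to 104, 108, 107, 112 and 102 CPM (3.55 (SE 0.077, adjusted p = 1.07e-10)), and it is on chromosome 7, against the direction of its neighbours. Lrp1, a large endocytic receptor for lipoproteins, proteases and their inhibitors, fell from 562, 432 and 422 CPM to 206, 198, 208, 214 and 201 CPM (-1.18 (SE 0.043, adjusted p = 2.71e-08)). P2rx7, an ATP-gated channel, rose from 0.805, 0.384 and 0.596 CPM to 11.3, 12.2, 12.9, 13.01 and 10.6 CPM (4.35 (SE 0.19, adjusted p = 8.36e-08)). Decr1, an enzyme for the oxidation of unsaturated fatty acids, rose by 1.97 (SE 0.11, adjusted p = 5.56e-07).

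Genes of cholesterol synthesis and uptake formed the list with the highest share of calls. Cholesterol is made from acetyl-CoA through mevalonate, and SREBP2 turns on the pathway when sterols are scarce. Of 23 tested members, 16 were higher and 1 was lower, 73.9% called against 14.9% over all genes. Their median log2 fold change was 0.38, against a median of all tested genes near 0. The rises were small. They included the early enzyme Hmgcs1 (0.42), Idi1 (0.68), Sqle (0.46) and Lss (0.48). The regulators Srebf2 (0.25) and Insig1 (0.59) and the sterol carrier Stard4 (0.49) rose as well. The exception was Dhcr7, the final reductase of the pathway's usual branch. It had 236, 200.4 and 184 CPM in the parental libraries and 157 to 169 CPM in the fat-pad lines (-0.33), and it is the only tested member on chromosome 7.

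The parental libraries differed among themselves in this pathway. Idi1, which isomerises the isoprene unit, had 7.06, 18.6 and 14.97 CPM in parental libraries 1, 2 and 3 and 22.5, 21.6, 25.95, 22.4 and 27.4 CPM in the fat-pad lines (0.68 (SE 0.102, adjusted p = 0.00105)), and its libraries overlapped. Lss, which closes the sterol ring, had 29.7, 33.2 and 33.03 CPM and 40.2, 40.4, 51.6, 43.1 and 47.3 CPM (0.48 (SE 0.095, adjusted p = 0.00836)), with no overlap. Of the list, 12 members were called higher in run B alone and 1 in run A alone, where the parental line has 1 library. Without parental library 2, 5 were called, and with the YEJH lung lines in the fit 0 were called. The median log2 fold change stayed positive in each alternative, from 0.24 to 0.44. The YEJH lung lines had 48.0 to 60.2 CPM of Lss and 26.6 to 37.4 CPM of Idi1, each above YEJH. In YEJG-FP, Lss went the other way, from 44.8 CPM in YEJG to 28.8 CPM.

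To place these genes on their regulatory sequence, RefSeq promoters of GRCm38.p6, the 250 bases before the start, were searched on both strands for TCACNCCAC, a sterol element, and for CCAAT, whose box is bound by NF-Y beside it. Of the 16 genes called higher, 11 had a promoter in the table. TCACNCCAC was found in 1 of them and in 1.05% of 32851 promoters, and CCAAT in 10 of them and in 33.8% of all promoters. Members that were not called held CCAAT as well, since 15 of the 16 tested members with a promoter did. The promoters of Hmgcs1 (chr13:119690101-119690350, forward strand) and Idi1 (chr13:8885356-8885605, forward strand) are shown, since the first holds the sterol element and the second does not. Capitals mark the matches, with ATTGG as the reverse complement of CCAAT.
Hmgcs1: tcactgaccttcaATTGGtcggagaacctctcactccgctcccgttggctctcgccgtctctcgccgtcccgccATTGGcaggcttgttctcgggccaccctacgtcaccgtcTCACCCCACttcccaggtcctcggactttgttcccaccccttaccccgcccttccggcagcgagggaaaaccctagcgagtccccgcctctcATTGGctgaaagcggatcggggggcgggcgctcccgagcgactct
Idi1: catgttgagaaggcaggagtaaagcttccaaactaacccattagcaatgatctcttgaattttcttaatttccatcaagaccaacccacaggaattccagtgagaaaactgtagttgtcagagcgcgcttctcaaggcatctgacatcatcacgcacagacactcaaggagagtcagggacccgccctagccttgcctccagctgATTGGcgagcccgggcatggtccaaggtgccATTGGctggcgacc
In Hmgcs1 the sterol element begins 137 bases before the start. A match describes the letters of the window only and does not show binding.

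Fatty acid synthesis and desaturation moved in the same direction, with 8 of 21 tested members higher, 0 lower and a median of 0.21. That is 38.1% called against 14.9% over all genes. Among those that rose were desaturases, which make fatty acids unsaturated. Scd1, the stearoyl-CoA desaturase, had 25.1, 22.7 and 24.2 CPM in the parental libraries and 65.9, 71.2, 77.2, 68.8 and 64.2 CPM in the fat-pad lines (1.54 (SE 0.11, adjusted p = 6.62e-05)). Fads2, the first desaturase of polyunsaturated fatty acids, had 10.7, 13.9 and 12.3 CPM and 30.2, 31.1, 37.5, 28.3 and 33.7 CPM (1.37 (SE 0.098, adjusted p = 5.54e-06)), and its neighbour Fads1 rose by 0.94. In both genes every fat-pad library lay above every parental library. Elovl6, which elongates palmitate, rose from 45.96, 66.01 and 78.7 to 105, 101, 109, 104 and 112 CPM (0.704 (SE 0.051, adjusted p = 5.44e-06)). Srebf1, the regulator of this pathway, was 0.36 (SE 0.061, adjusted p = 0.00205) higher, with overlapping libraries. In YEJG-FP, Scd1 rose from 3.22 to 54.1 CPM, while Fads2 was at 6.58 CPM against 15.9 in YEJG. Thrsp, a lipogenic nuclear protein on chromosome 7, had 0 parental reads and was at least 5.32-fold higher. The count of members called was 2 in run A alone and 3 with the lung lines in the fit. Of 17 tested genes of fatty acid oxidation, 0 were higher and 1 was lower (3 without parental library 3), which was Acaa2, a mitochondrial thiolase (-0.36). That is 5.88% called against 14.9% over all genes, and Decr1, described above, is not in the list.

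Genes of glycolysis and of the response to low oxygen rose in 11 of 30 tested members and fell in 1, with a median of 0.15. Car9, the membrane carbonic anhydrase that is a standard mark of hypoxia, had 0.984, 0.461 and 0.715 CPM in the parental libraries and 11.9, 12.2, 10.1, 8.96 and 9.23 CPM in the fat-pad lines (3.84 (SE 0.32, adjusted p = 0.000236)). It was called in all 21 alternatives. Egln3, an oxygen-sensing prolyl hydroxylase, rose by 1.94, and Pdk1, which restrains the entry of pyruvate into mitochondria, rose from 8.14, 6.53 and 6.02 to 13.6, 15.3, 13.4, 11.5 and 16.6 CPM (1.15 (SE 0.14, adjusted p = 0.000236)). The glycolytic enzymes moved less, with Aldoc at 1.36, Pfkp at 0.36, Pfkl at 0.32, Pgam1 at 0.21 and Tpi1 at 0.17. Gpi1, on chromosome 7, was the member that fell (0 fell without parental library 1 or 2 and 3 without library 3, log2 fold change -0.201), whereas Bnip3, a mitophagy receptor on the same chromosome, rose (0.68). In run A alone 3 members were called higher, and with the lung lines in the fit 2 were. The YEJH lung lines had 3.297 to 7.95 CPM of Car9, and YEJG-FP had 1.91 CPM against 0.485 in YEJG.

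The hypoxia element ACGTG was searched in the same way, and it was found in 6 of the 11 genes that rose, all of which had a promoter in the table, and in 16.6% of all promoters. Over the whole list it was found in 17 of the 29 tested members with a promoter. The Car9 promoter (chr4:43506776-43507025, forward strand, GRCm38.p6, from RefSeq) is shown because Car9 had the largest rise of the list with reads in every parental library. Capitals mark CACGT, the reverse complement of the element, which begins 18 bases before the start.
Car9: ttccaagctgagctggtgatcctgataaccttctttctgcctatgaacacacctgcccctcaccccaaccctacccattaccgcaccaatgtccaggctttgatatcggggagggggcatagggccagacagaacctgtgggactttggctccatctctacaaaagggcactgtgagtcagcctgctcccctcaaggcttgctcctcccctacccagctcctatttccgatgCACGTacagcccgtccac

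Class I antigen presentation, by which cells show peptides to CD8+ T cells, rose in 9 of 23 tested members and fell in 0. That is 39.1% called against 14.9% over all genes, and the list median was 0.29. None of the members is on chromosome 7. B2m, the invariant light chain of all class I molecules, had 201, 201 and 211 CPM in the parental libraries and 273, 277, 285, 264 and 275 CPM in the fat-pad lines (0.45 (SE 0.047, adjusted p = 7.28e-05)). Tap2, a subunit of the peptide transporter, had 9.12, 8.68 and 8.23 CPM and 16.9, 21.5, 19.4, 18.8 and 17.7 CPM (1.16 (SE 0.12, adjusted p = 0.000114)). Both genes were called in all 21 alternatives, and neither overlapped between groups. Psmb8, a catalytic subunit of the immunoproteasome, rose from 0, 0.0768 and 0.179 CPM to 3.65, 6.103, 6.22, 5.198 and 3.34 CPM (5.64 (SE 0.87, adjusted p = 0.0147)), and its call was lost without parental library 2. Nlrc5, the transactivator of class I genes, had 3 parental reads and a ratio of 32.8 (11.2 to 159). The heavy chains moved little, with H2-K1 at 0.203, H2-Q4 at 0.26 and H2-M3 at 0.65, and sequence shared among class I genes makes their counts uncertain. Without parental library 2 the list had 3 members called higher. YEJG-FP had more Tap2 than YEJG (13.8 against 2.77 CPM), but its B2m (177 against 185 CPM) overlapped.

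Of 29 tested genes of the interferon response, 6 were higher and 2 were lower (27.6% called against 14.9% over all genes). The list median was 0.34. Those that rose were Usp18 (1.72), Oas1a (1.85), Oas3 (1.80003), Bst2 (0.93), Parp14 (0.64) and Ifit2 (0.49), which include a negative regulator of the receptor, sensors of viral RNA and a tether of budding virus. Isg15, a ubiquitin-like modifier (-0.48), and Rigi, the RIG-I helicase (-0.297), were lower. Usp18 had 1.52, 1.46 and 1.19 CPM in the parental libraries and 3.73, 4.62, 5.58, 4.803 and 4.17 CPM in the fat-pad lines (adjusted p = 0.000913). The list had 3 genes called higher without parental library 1 and 2 without library 2. Leukocyte markers summed to 24.5 to 26.6 CPM in parental and 26.01 to 37.05 CPM in fat-pad libraries, and 9 of the 20, among them Cd3e, Adgre1, Itgam and Tyrobp, had no read in any library. The part of other cells in these 2 lists was not tested beyond these values.

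The interferon-stimulated element GAAANNGAA was found in 7.13% of all promoters, in 1 of the 7 class I genes and in 3 of the 4 interferon genes that rose and had a promoter in the table. Counting the members that did not rise, it was in 5 of 20 class I and 13 of 20 interferon genes with a promoter. The class I gene was B2m (chr2:122147437-122147686, forward strand, GRCm38.p6, from RefSeq), whose promoter is shown because B2m was the most abundant member named. Capitals mark the element, which begins 139 bases before the start.
B2m: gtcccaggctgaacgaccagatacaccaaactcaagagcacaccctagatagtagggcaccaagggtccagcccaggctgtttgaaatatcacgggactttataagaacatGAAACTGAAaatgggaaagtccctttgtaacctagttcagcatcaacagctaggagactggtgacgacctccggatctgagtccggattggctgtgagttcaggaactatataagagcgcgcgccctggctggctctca

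**Figure D4:**
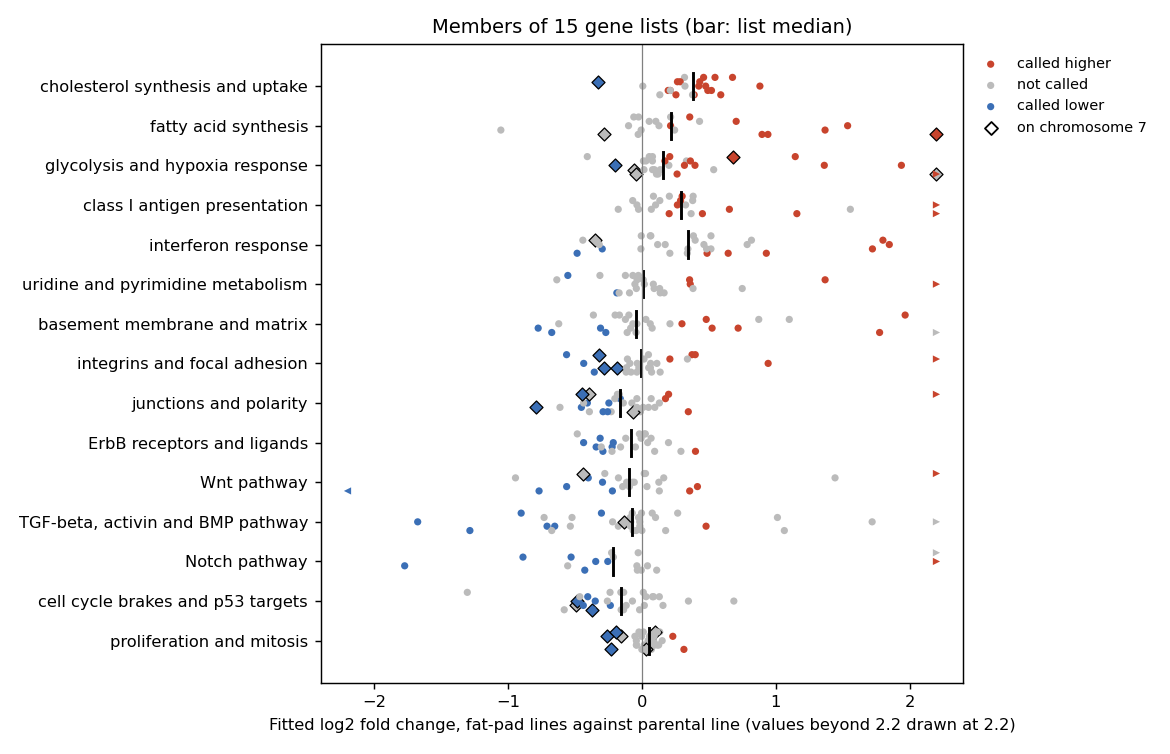
Fitted log2 fold change of fat-pad lines against the parental line (x axis) for every tested member of 15 gene lists (rows), red if called higher, blue if called lower and grey if not called, with diamonds for genes on chromosome 7 and a bar at the list median. Cholesterol synthesis lies furthest to the right with 16 of 23 members called higher, and values beyond 2.2 are drawn at 2.2.

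Uridine and pyrimidine genes were of interest because the study concerns uridine phosphorylase. Upp1, which splits uridine into uracil and ribose phosphate, had 25.7, 29.4 and 22.95 CPM in the parental libraries. The fat-pad libraries had 29.8, 33.8 and 37.1 CPM as lowest, median and highest, all above the parental libraries. The log2 fold change was 0.36 (SE 0.074, adjusted p = 0.006701), and the call was lost in run A alone and with the lung lines in the fit. YEJG-FP did not differ beyond its libraries, at 21.3 CPM against 21.97 in YEJG. Upp2, the other uridine phosphorylase, had 6 to 16 reads per library and a fitted difference of -0.31 (SE 0.28, adjusted p = 0.53005).

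Slc29a1, the equilibrative transporter through which uridine crosses the membrane, had 54.6, 42.7 and 38.4 CPM in the parental libraries and 113, 119, 114, 109.7 and 114 CPM in the fat-pad lines, with a difference of 1.37 (SE 0.057, adjusted p = 7.84e-08) that was called in all 21 alternatives. YEJG-FP rose likewise, to 154 CPM from 52.8. Uck2, a kinase that salvages uridine to UMP, fell from 472, 452 and 399 CPM to 295, 285, 300.5, 291 and 311 CPM (-0.55 (SE 0.048, adjusted p = 2.26e-05)). The other called members were Nt5e, which releases nucleosides outside the cell (0.36), Upb1, the last enzyme of uracil breakdown (2.29), and Tk1, thymidine kinase (-0.19). The list of 25 tested members had 4 higher, 2 lower (24.0% called against 14.9% over all genes) and a median of 0.0096. Without parental library 2 there were 2 higher, and without library 3 there were 4 lower.

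Matrix genes went both ways. Of 28 tested basement membrane and matrix genes, 6 were higher and 4 were lower (35.7% called against 14.9% over all genes). The list median was -0.041. Those lower numbered 2 without parental library 2 and 8 without library 3. Col4a1 and Col4a2, collagen IV chains of basement membrane, fell. Col4a1 had 867, 785 and 653 CPM in the parental libraries and 486, 497, 473, 524 and 455 CPM in the fat-pad lines (-0.67 (SE 0.052, adjusted p = 7.95e-06)). Col4a2, transcribed from the same locus in the opposite direction, had 719, 645 and 533 CPM and 369, 342, 378, 365 and 373 CPM (-0.78 (SE 0.052, adjusted p = 3.29e-06)). Neither overlapped between groups, and YEJG-FP was also lower, at 96.7 CPM of Col4a1 against 837 in YEJG. Other collagen genes rose, with Col6a1 at 1.97, Col6a2 at 1.78 and Col7a1, the anchoring fibril collagen, at 0.72. Col5a1, counted among the mesenchymal genes, rose by 2.86, a call lost in 6 of 21 alternatives. Col1a1, a fibrillar collagen chain, had 0.28 CPM in the parental and 0.228 CPM in the fat-pad libraries on average and did not pass (adjusted p = 0.686). Col7a1 was at 65.5 to 69.4 CPM in the parental libraries and 107 to 121 CPM in the fat-pad lines, but fell in YEJG-FP to 41.1 CPM from 89.3. The parental fibroblast markers summed to 2.52 to 4.47 CPM and those of the fat-pad libraries to 3.38 to 6.58 CPM, with Lum, Thy1 and Dpt without a read. On average Pdgfra went from 2.54 to 3.77 CPM, Col1a2 from 0.21 to 0.62 CPM and Pdgfrb from 0.061 to 0.29 CPM. Of the 4 tested fibroblast markers, 3 had all 5 fat-pad lines above YEJH and 0 had all 5 below, with 1 called higher. The part of such cells in the collagen rises was not tested.

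Among proteases and sheddases, 5 of 23 tested members were higher and 5 were lower, or 3 and 2 without parental library 2. That is 43.5% called in the main fit against 14.9% over all genes. The aggrecanases Adamts5 (2.87 (SE 0.27, adjusted p = 0.000243)) and Adamts4 (0.92) rose, as did Adamts1 (0.86). Plau, the urokinase plasminogen activator, fell from 889, 846 and 769 CPM to 604, 571, 651, 583 and 563 CPM (-0.51 (SE 0.087, adjusted p = 0.00857)), and Mmp15, a membrane-type metalloprotease, fell by 1.09 on the log2 scale. Of 18 tested protease inhibitors, 2 were higher and 4 were lower (33.3% called), or 1 and 2 without parental library 2. The lower ones included Spint2, an inhibitor of membrane serine proteases (-0.48), and the collagen chaperone Serpinh1 (-0.25), both on chromosome 7, and Serpinb9, a granzyme inhibitor (-0.697).

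Of 28 tested integrin and focal adhesion genes, 5 were higher and 6 were lower (39.3% called against 14.9% over all genes). Of the lower ones, 3 (Parva, Actn4 and Ilk) are on chromosome 7. Without parental library 1 the lower ones were 3, and the higher ones were 3 without library 2 and 8 without library 3. Itgb4, the hemidesmosome integrin that binds laminin, fell from 1416, 1216 and 1099.5 CPM to 883, 837, 891, 899 and 780.2 CPM (-0.56 (SE 0.058, adjusted p = 7.73e-05)), with no overlap. Itga2, a collagen receptor subunit, fell by 0.44, and Itga5, a fibronectin receptor subunit, rose by 0.37. Dlc1, a GTPase-activating protein of focal adhesions, rose from 12.6, 12.4 and 10.02 CPM to 20.9, 22.4, 20.5, 17.4 and 23.6 CPM (0.94 (SE 0.12, adjusted p = 0.000742)) and was called in all 21 alternatives.

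Junction and polarity genes were lower in 8 of 32 tested members and higher in 4 (37.5% called against 14.9% over all genes). The list median was -0.17. Jup, plakoglobin, which joins desmosomes and adherens junctions to the cytoskeleton, fell from 423, 378 and 335 CPM to 277, 263, 299, 272 and 261 CPM (-0.45 (SE 0.064, adjusted p = 0.00109)). Pkp3 (-0.45), a desmosomal plaque protein, and Cadm4 (-0.79), a nectin-like adhesion molecule, are on chromosome 7. Other falls were in Crb3 (-0.41), Patj (-0.26) and Llgl2 (-0.25), which set apical and basal polarity. Gjb2, a connexin, had 3 parental reads and a ratio of 8.98 (3.07 to 43.5). Without parental library 1 or 2 the higher members were 2.

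Of 21 mesenchymal transition genes tested, 5 were higher and 2 were lower (33.3% called against 14.9% over all genes). Without parental library 2 these counts were 2 and 1. Zeb1, a repressor of epithelial genes, rose from 3.31, 4.61 and 4.11 CPM to 6.78, 8.73, 6.88, 7.32 and 9.98 CPM (1.11 (SE 0.21, adjusted p = 0.00699)), and Prrx1, a mesenchymal homeobox factor, from 1.52, 1.31 and 2.21 CPM to 4.29, 5.47, 4.41, 4.96 and 6.08 CPM (1.62 (SE 0.19, adjusted p = 0.000199)). S100a4, a calcium-binding protein linked to motility and metastasis, moved the other way. It had 438, 580.004 and 408 CPM in the parental libraries and 220.5, 227, 232, 237 and 219.8 CPM in the fat-pad lines (-1.09 (SE 0.051, adjusted p = 1.53e-07)). YEJG-FP did not have less S100a4 than YEJG, at 322 CPM against 315, and these libraries overlapped. The luminal list had 3 higher and 5 lower of 23 tested (34.8% called), with 3 lower without parental library 2. Esr1, the oestrogen receptor, fell from 7.69, 8.45 and 9.18 CPM to 5.65, 5.92, 4.78, 5.87 and 5.43 CPM (-0.65 (SE 0.12, adjusted p = 0.004096)). Gata3, which maintains luminal identity, fell by 0.33, and Prlr, the prolactin receptor, had 0 parental reads and was at least 10.9-fold higher.

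Several lists of growth-inhibitory and developmental genes had more members called lower than higher. Over all tested genes 8.24% were lower and 6.69% were higher. Among cell cycle brakes and p53 targets 0 of 29 tested members were higher and 7 were lower (24.1% called against 14.9% over all genes). The list median was -0.16, and Aen and Bbc3 of the lower members are on chromosome 7. Perp, a desmosomal p53 target, fell from 438, 422 and 409 CPM to 327, 305, 321, 340.2 and 306 CPM (-0.44 (SE 0.043, adjusted p = 4.88e-05)). Mdm2 (-0.37), which degrades p53, and Cdkn1b (-0.24), a cyclin-dependent kinase inhibitor, fell too. The count of lower members was 3 in run A alone and 2 without parental library 2, and without library 3 there were 3 higher members beside 5 lower. The proliferation list had 2 of 34 members higher and 3 lower, a share of calls of 14.7% against 14.9% over all genes. All 3 that fell, Ccnd1, Rrm1 and E2f8, are on chromosome 7. Without parental library 3 this list had 6 higher and 5 lower, and without library 2 it had 0 and 1.

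In the TGF-beta and BMP pathway, 6 of 33 tested members were lower and 1 was higher (21.2% called against 14.9% over all genes), with 4 higher without parental library 3. The Id genes, direct targets of BMP signalling that hold back differentiation factors, fell together. Id1 had 98.9, 75.7 and 53.2 CPM in the parental libraries and 40.5, 40.2, 42.2, 41.4 and 38.2 CPM in the fat-pad lines (-0.903 (SE 0.057, adjusted p = 2.23e-06)). Id2 fell from 21.6, 14.98 and 9.54 CPM to 6.33, 7.12, 5.56, 6.89 and 5.71 CPM (-1.29 (SE 0.13, adjusted p = 4.67e-05)), and Id3 fell by 0.71 (SE 0.071, adjusted p = 7.54e-05). The parental libraries were unequal in all 3 genes, with library 3 closest to the fat-pad lines, and in Id3 the libraries overlapped.

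In the Notch pathway 6 of 17 tested members were lower and 1 was higher (41.2% called against 14.9% over all genes). The list median was -0.21. The lower ones were the receptor Notch3 (-1.77), the ligand Dll1 (-0.43), the coactivator Maml2 (-0.89), the modifier Lfng (-0.35) and the targets Nrarp (-0.53) and Hes1 (-0.26). Notch3 had 5.901, 2.997 and 2.92 CPM in the parental libraries and 1.61, 1.38, 1.27, 1.24 and 0.722 CPM in the fat-pad lines (adjusted p = 0.00263). Notch4 rose (2.85). The count of lower members was 3 without parental library 2 and 0 with the lung lines in the fit.

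Of 22 tested ErbB receptors, ligands and targets, 1 was higher and 6 were lower (31.8% called against 14.9% over all genes). Egfr rose from 73.8, 73.8 and 82.5 CPM to 107, 110.3, 95.7, 104 and 95.6 CPM (0.3997 (SE 0.086, adjusted p = 0.015999)), while Erbb2 (-0.21) and Erbb3 (-0.31) fell. The ligands Areg (-0.29) and Btc (-0.34) fell, as did the feedback phosphatase Dusp4 (-0.44) and the ETS factor Etv4 (-0.22). The list had 2 genes lower without parental library 2, 1 in run A alone and 0 with the lung lines in the fit.

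In the Wnt pathway 3 of 25 tested members were higher (5 without parental library 1) and 6 were lower. That is 36.0% called against 14.9% over all genes. Rnf43, a ubiquitin ligase that removes Frizzled receptors from the membrane, rose from 0.447, 0.307 and 0.417 CPM to 3.35, 2.84, 2.798, 2.97 and 3.78 CPM (2.99 (SE 0.2998, adjusted p = 5.64e-05)). Wnt4 (-2.38), Wnt7a (-0.29), the receptors Fzd1 (-0.401) and Fzd5 (-0.22), the inhibitor Sfrp1 (-0.77) and the target Axin2 (-0.56) fell.

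Angiogenic and guidance genes had the second highest share of calls (54.3% against 14.9% over all genes), with 10 of 35 tested members higher and 9 lower. Flt1, a receptor for VEGF and placental growth factor, fell from 6.26, 4.303 and 5.07 CPM to 0.881, 0.756, 0.928, 0.876 and 1.05 CPM (-2.53 (SE 0.19, adjusted p = 5.99e-06)), whereas its ligand Pgf rose from 1.61, 0.768 and 1.67 to 4.13, 3.52, 3.26, 4.04 and 4.03 CPM (1.42 (SE 0.202, adjusted p = 0.000627)). Sema7a, a membrane-anchored semaphorin, rose by 1.04 (SE 0.12, adjusted p = 0.000130), and Sema3b had 0 parental reads and was at least 15.2-fold higher. Robo1, a receptor for Slit ligands, fell by 4.34 (SE 0.84, adjusted p = 0.00484). In the YEJG pair Flt1 moved the opposite way, from 0.424 CPM in YEJG to 2.32 CPM in YEJG-FP. Without parental library 2 there were 7 higher and 3 lower.

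The unfolded protein and amino acid response had 5 of 29 tested members higher and 0 lower, a share of 17.2% near the 14.9% over all genes, among them Slc7a5 (0.22) and Slc7a11 (0.36), which import amino acids, and in run A alone 0 were called. Of 28 lysosome and autophagy genes, 1 was higher and 6 were lower, including the proteases Ctsd (-0.54, on chromosome 7) and Ctsh (-0.37). Of 24 tested chemokines, cytokines and myeloid growth factors, 3 were higher and 2 were lower (20.8% against 14.9%), with the stromal chemokine Cxcl12 at -1.18 and the neutrophil growth factor Csf3 at 0.27, and without parental library 2 the higher ones numbered 1. Of 9 milk and secretory genes tested, 44.4% were called. The higher ones were Lcn2 (2.77) and Btn1a1 (0.48), and the lower ones were Mfge8 on chromosome 7 (-0.25) and Cd24a (-0.25). Of 11 basal genes tested 1 was higher and 1 was lower, and of 15 imprinted genes 0 were higher and 2 were lower, shares of 18.2% and 13.3% that are near the 14.9% over all genes.

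Of the 2393 called genes, 1995 (83.4%) had all 5 YEJH lung lines on the same side of YEJH as the fat-pad lines. Over all tested genes, 5857 of the 9494 on one side did. Both sets of lines are set against the same parental libraries. To see which values also separate fat-pad lines from other descendants of YEJH, the 5 fat-pad lines were compared with the 5 YEJH lung lines. This comparison left the parental line out. The paper states that the lung micrometastases formed after the primary tumour had been resected, so a lung and a fat-pad line may come from the same mouse. The labels do not pair them, and the test was unpaired. In the same edgeR test 5 of 14990 genes passed (0.0334%), and 1151 had an unadjusted p under 0.05. The number depended on the tool and on single lines, since DESeq2 called 140 genes and the edgeR fit without lung line YEJH-M5 called 113. Of the 5, Dlc1 and Adamtsl3 were also called between fat-pad and parental lines. Dlc1 stood at 17.4 to 23.6 CPM in the fat-pad lines, 10.02 to 12.6 CPM in the parental libraries and 12.6 to 13.9 CPM in the lung lines, so that the lung lines lay near the parental line. The log2 difference of lung minus fat-pad lines was -0.64 (SE 0.078, adjusted p = 0.031), a call made in 7 of 16 alternatives. With the line number as replicate block in the edgeR test, the adjusted p of Dlc1 was 0.071. Adamtsl3, a secreted matrix protein on chromosome 7, had a log2 fold change of -1.21 in fat-pad lines against YEJH (adjusted p = 6.51e-06), and of -1.11 in lung lines against fat-pad lines (adjusted p = 0.0016). The other 3 were Kremen1, an inhibitor of Wnt receptors (0.44), Lama4, a laminin chain (-1.53), and Aqp1, a water channel (-1.67, all lung minus fat-pad). Against the parental line Aqp1 had a log2 fold change of 3.11 (adjusted p = 0.067) and Lama4 of 0.87 (adjusted p = 0.067).

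The YEJG pair gave a comparison that shares no library with the YEJH fat-pad lines. It has 1 derived line, so it gives values and no test. Of the 2393 called genes, 75.6% had the same sign in YEJG-FP minus YEJG, against 62.5% of all tested genes. In 1222 of the called genes the 3 libraries of YEJG-FP and YEJG were apart in the same direction, and in 270 they were apart in the opposite direction. Over all tested genes these libraries were apart, in either direction, in 37.8%. Among the 24 largest changes, Crispld2 was the only one whose YEJG libraries were apart the other way, at 0.183 CPM against 0.949, and Slfn8 overlapped. Nqo1 rose from 0.491 CPM to 102 CPM and Epb41l3 fell from 4.704 CPM to 0.367 CPM. The libraries of the YEJG pair overlapped for Idi1, Pdk1, B2m, Id2, Uck2 and S100a4, among others.

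**Figure D5:**
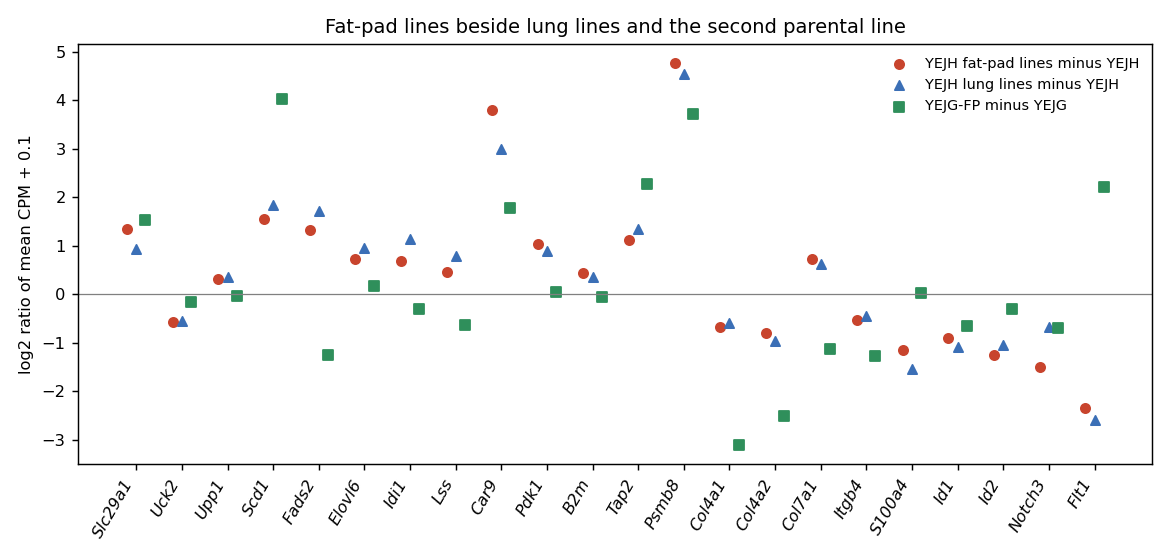
The log2 ratio of mean CPM plus 0.1 for 22 genes named in the text, with circles for the YEJH fat-pad lines and triangles for the YEJH lung lines, both against YEJH, and squares for YEJG-FP against YEJG. Slc29a1 and Scd1 are above 0 and Col4a1 and Itgb4 below 0 in all 3. Fads2, Lss, Col7a1 and Flt1 change sign in the YEJG pair with its libraries apart. S100a4, Idi1, B2m and Upp1 change sign there with overlapping libraries.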

How the data were processed

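RNA from 15 PyMT+ lines was sequenced in technical triplicate with the TruSeq RNA Library Prep kit v2 on a NextSeq500. The authors deposited raw read counts for 54838 genes per library. Per the labels, HISAT2, SAMtools 1.2 and HTSeq were used. The notes name the human build GRCh38, although the identifiers are mouse, and the build used is not given in the sources used here. Names and chromosomes came from GENCODE M39 (92.6% of identifiers matched). Rows for unassigned reads were left out.

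Counts were summed per line and tested with edgeR 4.0.16 (R 4.3.3, TMM, filterByExpr, quasi-likelihood, Benjamini-Hochberg threshold 0.05), with the share of run A reads as covariate. SE is the absolute log2 fold change over the square root of F. Line CPM weighed both runs equally. The test was tested on simulated data. Alternatives included DESeq2 1.42.0 and limma 3.58.1. No library duplicated another. Counting intervals are exact Poisson intervals.

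The genes compared, the lists and the tests were chosen with earlier results of these data known. Named are the 12 largest rises and falls with mean log2 CPM of at least 1, up to 4 called members per list with the smallest p, and Upp1 and Upp2. Genes named beyond this rule, such as Apobr, Lrp1, P2rx7, Decr1, Hmgcs1, Fads1, Nlrc5, Robo1 and Adamtsl3, were chosen after their values were seen. Figures used Python 3.11.15 and matplotlib 3.10.9. Some list members are included in the counts but are not reported here by name.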

Additional observations from a re-analysis of the deposited data

Results flagged for a closer look

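In 8 of 126 named genes, 1 fat-pad line lay apart from the other 4 by more than Dixon's 95% critical value, where chance gives about 6.3. The gap to the nearest line, as a share of the range of the 5 lines, was 0.74 for Epb41l3 (YEJH-FP1 lowest, at 0.068 CPM), 0.81 for Slc2a5 (YEJH-FP2 lowest, at 1.40 CPM) and 0.77 for Wnt4 (YEJH-FP1 highest, at 0.496 CPM). It was 0.73 for Etv4, 0.74 for Srebf1 and 0.87 for Pkp3, in each of which YEJH-FP3 was highest, and 0.75 for Mfge8 and 0.77 for Srxn1, in which YEJH-FP2 was highest.

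In 9 of the 90 named genes whose fat-pad and parental libraries were apart, the libraries of YEJG-FP and YEJG were apart in the opposite direction, and in 59 they were apart in the same direction. Most named genes were picked for a large change or a small p. Over all tested genes the YEJG libraries were apart, in either direction, in 37.8%. Among the 2393 called genes they were apart the same way in 1222 and the opposite way in 270. The difference between the parental lines was not tested, since YEJG has 1 fat-pad line. The log2 difference of YEJG-FP minus YEJG was positive where the YEJH fat-pad lines were lower for Acaa2 (0.38), Flt1 (2.14), Rigi (0.36) and Wnt4 (1.22). It was negative where they were higher for Col7a1 (-1.12), Crispld2 (-1.72), Fads2 (-1.25), Lss (-0.64) and Procr (-0.58). In Flt1 the 3 YEJG libraries had 0.298 to 0.585 CPM and the 3 YEJG-FP libraries 2.29 to 2.36 CPM.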

How the results depend on the processing

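The main fit called 2398 genes between fat-pad and parental lines. This count stayed between 1771, in DESeq2, and 3238 under normalization, filter, covariate, tool and unit alternatives. It was 2078 in run B alone. It was 794 in run A alone, where the parental line has 1 library, and 433 with the lung lines in the fit. Leaving out 1 fat-pad line gave 1752 to 2573 genes, and leaving out 1 parental library gave 1255 to 4088, which is the range over all single omissions. The 9494 genes on one side (59.1% of those tested) ranged from 7631 with a strict filter (63.6%) to 12543 with no filter (45.7%). The same-sign share in YEJG was 75.6%, with 76.7% when chromosome 7 was left out and 71.7% on chromosome 7 alone. The lung comparison, with 5 genes, gave 140 in DESeq2, 8 in run B and 2 with the line number as replicate block, and leaving out 1 line gave 1 to 113. Of 124 named genes called, 31 were called in every alternative, and none of the 126 changed sign. Of the 124 calls, 84 were lost with the lung lines in the fit, 41 in run A alone and 10 in run B alone. Chromosome 7 was set aside as an alternative chosen after seeing the data (1744 genes).

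Repeat numbers were not used in the main fit, which sums the libraries of a line, so that every line holds each repeat number. The MG numbers in the library names run through all lines once for each repeat number, so the names group libraries by repeat. The labels do not say what these sets are. Same-numbered libraries of different lines correlated from -0.15 to 0.37 (mean 0.107) in their deviations from line means. The values also point to shared sets. Of 18 libraries, 15 correlated best with their own number in other lines, and library 1 was lowest on the second principal component in all 6 lines. With the repeat number as replicate block limma called 3238 genes, against 3186 without it, and 1 named call was lost. Genes with few parental reads are limited by depth, as their intervals show.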
